A study of Mus musculus with 4 samples.

Results

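Excitation-contraction coupling is the step by which a muscle cell turns an electrical signal into calcium release and contraction. The genes described are 10 that encode its core proteins and proteins of the sarcoplasmic reticulum, the internal calcium store: Ryr1, Cacna1s, Cacng1, Atp2a1, Casq1, Casq2, Trdn, Jph1, Jph2 and Dhrs7c. Every probe other than control spots was kept if its transcript accession maps to one of these symbols. This gave 10 of the 19751 named genes on the array, with 12 of its 39429 probes. Of these, 11 probes, covering all 10 genes, were well above background in 1 channel on at least 3 of 4 arrays and were tested.

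RNA came from C2C12 cells, an established line of mouse myoblasts that forms multinucleated myotubes in medium with little serum. One group was given interferon-γ (IFN-γ) at 1 ng/ml through 3 days of differentiation, and the control group was differentiated for 3 days without the cytokine. Each of 4 two-colour Agilent arrays had the IFN-γ sample labelled with Cy5 and the control sample with Cy3, and the labels number the treated samples as biological replicates 1 to 4. Nothing in the labels tells whether 4 control cultures were grown, so the p-values cover array-to-array scatter, which can include technical error. The labels give the horse serum as 2% in one field and 10% in another. Both groups are 1 cell line, so the ratios describe cultured cells after 3 days and not muscle tissue.

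In skeletal muscle the voltage sensor in the T-tubule, a channel of the L-type family, touches the ryanodine receptor of the facing reticulum membrane, and its movement opens the receptor. Junctophilins hold the membranes together, calsequestrin binds calcium inside the store near the release site, triadin links calsequestrin to the receptor, and a calcium pump refills the store. These genes are switched on late in the differentiation of myoblasts into myotubes.

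The unit below is the log2 ratio of IFN-γ over control after loess normalisation within each array, and the error is the SD over arrays. Called means an adjusted p under 0.05 from limma, adjusted over all 28921 tested probes. Median spot intensities lay between 141 and 248 for IFN-γ RNA and between 78 and 93 for control RNA, and 28548 to 30148 probes were well above background in Cy5 against 22453 to 25905 in Cy3. The dye orientation was the same on every array, so an effect of dye cannot be told apart from one of IFN-γ. Of the 44 pairs of unnormalised member intensities, 43 were higher in Cy5 than in Cy3, so each fall below is relative to probes of similar brightness. Replicate 2 correlated least with the other arrays across tested probes, with r from 0.54 to 0.66, against 0.85 to 0.89 among the other arrays, and values without it are given where they matter. All 8 fixed interferon response genes, among them Igtp and Psmb8, were called higher, with a median log2 ratio of 3.75.

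Upstream sequence is shown for 4 members, 3 whose probes fell with IFN-γ (Cacna1s, Casq1 and Atp2a1) and 1 whose probe did not pass (Casq2). The RefSeq promoter table, in build GRCm38.p6, matched 6 of the 10 members. Each sequence covers the 250 bases before the annotated start site, 5′ to 3′ on the gene's strand, and capitals mark E-boxes (CANNTG, the motif bound by myogenic bHLH factors) and sites of the MEF2 type.
Cacna1s (chr1:136052561-136052810, plus strand): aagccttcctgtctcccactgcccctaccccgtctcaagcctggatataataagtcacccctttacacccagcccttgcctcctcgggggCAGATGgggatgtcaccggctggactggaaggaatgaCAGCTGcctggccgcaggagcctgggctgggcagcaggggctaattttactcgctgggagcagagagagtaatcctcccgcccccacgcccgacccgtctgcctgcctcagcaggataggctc
Casq1 (chr1:172219896-172220145, minus strand): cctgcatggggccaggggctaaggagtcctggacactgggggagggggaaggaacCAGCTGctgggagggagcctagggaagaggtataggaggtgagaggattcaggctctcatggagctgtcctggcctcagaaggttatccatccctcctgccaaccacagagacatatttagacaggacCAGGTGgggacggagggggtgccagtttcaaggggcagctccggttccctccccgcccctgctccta
Atp2a1 (chr7:126463074-126463323, minus strand): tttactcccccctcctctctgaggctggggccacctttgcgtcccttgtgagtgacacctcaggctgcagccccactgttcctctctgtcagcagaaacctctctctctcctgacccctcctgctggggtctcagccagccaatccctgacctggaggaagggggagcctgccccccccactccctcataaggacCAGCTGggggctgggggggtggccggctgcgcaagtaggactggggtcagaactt
Casq2 (chr3:102086165-102086414, plus strand): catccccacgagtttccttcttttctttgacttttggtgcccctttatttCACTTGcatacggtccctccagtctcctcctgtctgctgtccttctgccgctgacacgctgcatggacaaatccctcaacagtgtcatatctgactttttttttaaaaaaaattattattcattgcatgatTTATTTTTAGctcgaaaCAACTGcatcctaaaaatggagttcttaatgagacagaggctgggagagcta
The E-box CAGCTG, searched on both strands and contained in the wider CANNTG motif, was present upstream of Cacna1s, Casq1, Atp2a1 and Jph2. That is 4 of 6 matched members and 5 of their 7 windows, as Jph2 has overlapping windows. Of all 32851 promoter windows of this length 13% held it. Any CANNTG motif was found upstream of 5 of the 6 members, all but Ryr1. It was in 6 of their 7 windows and in 66.2% of all windows. Ryr1, whose sequence is not shown, was also called lower under loess and had no match to any motif searched. Casq2 held E-boxes of other letters, at positions −200 and −52 from the start site, and the single match to the MEF2 consensus, at −69, a motif found in 2.92% of all windows. The CArG box, the interferon-γ activated site TTCNNNGAA and the core of the interferon-stimulated response element (GAAA, any 2 bases, GAAA) were found in 0 of the 6 members' windows, and in 1.47%, 7.02% and 2.98% of all windows. These matches are descriptions of letters and not of bound sites.

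Most core genes of calcium release and storage were lower in IFN-γ-treated cells under loess, with the sign of 7 of the 11 probes turned positive under median centring of the arrays. Under loess 7 of 11 member probes, of 6 genes, were called lower and 0 higher, while 4 did not pass. Among all tested probes 12.6% were called lower and 16.5% higher. Under median centring 3 member probes were called lower and 1 higher, against 22% and 56.8% of all probes. Leaving out replicate 1, 2, 3 or 4 gave 6, 9, 5 and 6 member probes called lower, against 6.75%, 19.2%, 3.98% and 4.37% of all probes. The methods' t-test, run here with the channels as unpaired groups, gave 2, against 0.139%. Among the genes called lower the largest fall was that of Dhrs7c, followed by Cacna1s, Casq1, Ryr1, Atp2a1 and Jph2, whereas Casq2 and Jph1 had means within 0.12 of 0. Of the 44 values of the 11 probes over 4 arrays, 41 were below 0, and 8 probes were below 0 on all 4 arrays, as were 22.2% of all tested probes. The median over member probes was −0.72, against 0.014 over all tested probes. Median centring, which shifts all ratios of an array by 1 value and so does not adjust for spot brightness, put the median of all tested probes at 0.50 and the members' median at 0.11, with 9 of 11 member probes below the median of all. In RNA of whole cultures, fewer differentiated cells and less RNA per cell cannot be told apart.

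**Figure D1:**
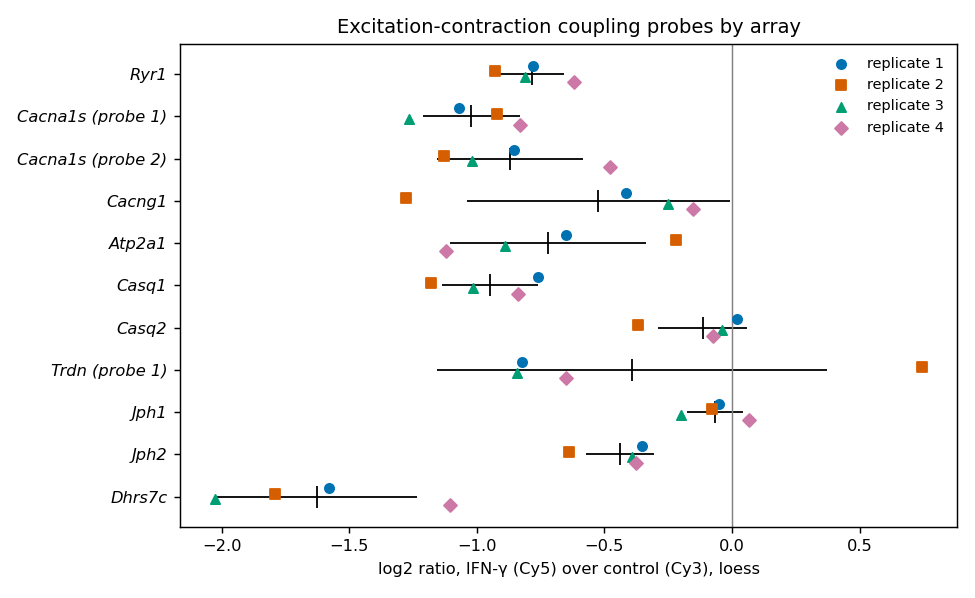
Log2 ratio of IFN-γ over control (x axis, loess) for each tested member probe (rows), with 1 point per array, a vertical tick at the mean and a bar of ± 1 SD over 4 arrays. Of 44 points 41 lie below 0, the exceptions being Trdn on replicate 2, Casq2 on replicate 1 and Jph1 on replicate 4; under median centring the means of 7 probes turn positive.

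The voltage sensor and its release channel were both called lower. Cacna1s encodes the pore-forming subunit of the L-type channel that senses voltage. On its brighter probe the normalised intensities of replicates 1 to 4 were 17350, 13530, 13400 and 15830 in IFN-γ-treated cells, against 36430, 25630, 32210 and 28140 in control cells. The IFN-γ value was the lower on each array, and the highest IFN-γ intensity stood below the lowest control intensity. How many of all tested probes separate in this way was not counted, here or for the genes below. The log2 ratio was −1.02 ± 0.19 (SD, n = 4), a 2.03-fold fall with an adjusted p of 0.00161 (limma). Under median centring it was −0.0003 and did not pass (adjusted p = 0.998, limma). The other Cacna1s probe had −0.86, −1.13, −1.02 and −0.48 on the 4 arrays, a mean of −0.87 ± 0.28 and an adjusted p of 0.00529 (limma), against 0.11 under median centring (adjusted p = 0.461, limma). Both probes match the same transcript, so they are not separate evidence of samples.

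Ryr1 encodes the ryanodine receptor, the calcium release channel of the reticulum. Its normalised intensities were 3214, 2337, 3083 and 2979 with IFN-γ, against 5520, 4454, 5407 and 4577 in controls. The groups did not overlap, and the ratios of −0.78, −0.93, −0.81 and −0.62 were among the least scattered of the members. Their mean of −0.79 ± 0.13 corresponds to 0.580 of the control level (adjusted p = 0.00191, limma). It was 0.22 under median centring (adjusted p = 0.116, limma), and the methods' t-test gave an adjusted p of 0.0596.

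Cacng1 encodes the gamma subunit of the same L-type channel and did not pass the test. Its ratios were −0.41, −1.28, −0.25 and −0.15, with a mean of −0.52 ± 0.51 (adjusted p = 0.0923, limma). All 4 values were negative, and replicate 2 stood well below the others. Without replicate 2 the mean was −0.27 and was called lower, with an adjusted p of 0.0260 (limma).

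The ratio of Ryr1 minus that of Cacna1s was 0.29, −0.01, 0.45 and 0.21 on the 4 arrays, with a mean of 0.24 ± 0.19. An exact sign-flip permutation test, two-sided, gave p = 0.25 and an adjusted p of 0.25 over the 3 pairs of members compared, where 4 arrays cannot go below 0.125. The difference was positive on 3 of 4 arrays and close to 0 on replicate 2.

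Calsequestrin gave the widest contrast between related members. Casq1 encodes the calsequestrin of fast skeletal muscle, and Casq2 the isoform of the heart that is also made in slow and immature skeletal fibres. Casq1 had normalised intensities of 367.9, 168.8, 234.4 and 264.8 with IFN-γ, against 622.7, 382.3, 473.7 and 473.2 in controls. Every IFN-γ value lay below every control value, narrowly, with 367.9 as the highest IFN-γ value and 382.3 as the lowest control value. The ratio was −0.95 ± 0.19 (adjusted p = 0.00194, limma), which is 0.518 of the control level. With the ratios of Feature Extraction, the scanner software, it was −1.34, and the methods' t-test gave an adjusted p of 0.164.

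Casq2 had 7157, 3728, 5555 and 5240 with IFN-γ, against 7061, 4811, 5700 and 5523 in controls. The groups overlapped, with replicate 1 slightly higher in IFN-γ cells and replicate 2 lower. The ratio of −0.12 ± 0.17 did not pass (adjusted p = 0.342, limma), but under median centring it was 0.89 and was called higher, with an adjusted p of 0.000318 (limma). In that setting the median of all tested probes was 0.50, and 56.8% of them were called higher.

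Set side by side on each array, the Casq1 ratio minus the Casq2 ratio was −0.78, −0.81, −0.98 and −0.76. The difference of −0.83 ± 0.10 had the same sign on 4 of 4 arrays, and its exact sign-flip p of 0.125, the smallest that 4 arrays allow, was 0.188 after adjustment over the 3 pairs. It was between −1.24 and −0.78 in the 11 alternative settings, and −1.20 was the lowest without median centring. The value of −1.24 was under median centring, which does not adjust for spot brightness. Casq1 was the dimmer probe, with a mean log2 intensity of 8.4 against 12.4 for Casq2.

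**Figure D2:**
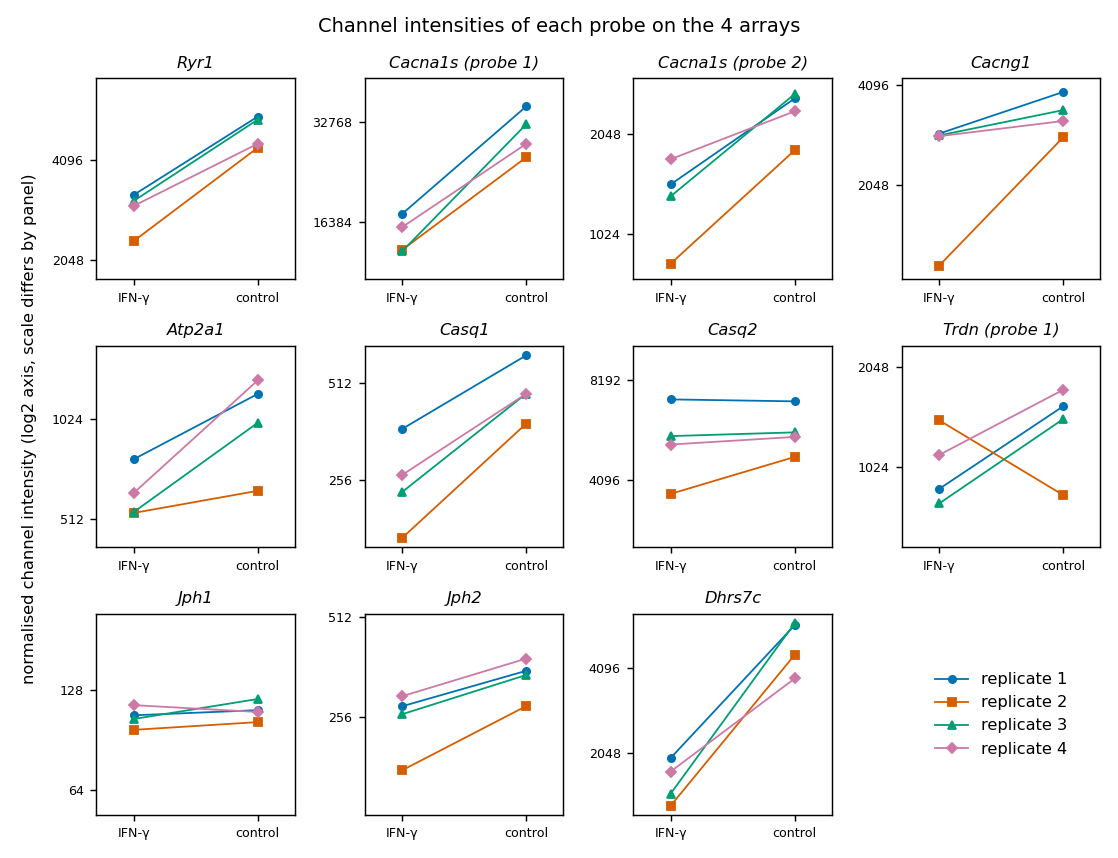
Normalised channel intensity (y axis, log2 scale, with a range that differs by panel) in IFN-γ-treated (left) and control cells (right) for each tested member probe, with 1 line per array. Lines climb to the right on all 4 arrays for Ryr1, both Cacna1s probes, Cacng1, Atp2a1, Casq1, Jph2 and Dhrs7c and on 3 of 4 arrays for Casq2, Jph1 and Trdn, with the Trdn line of replicate 2 falling steeply; the slopes depend on loess, since median centring turns 7 of these means positive.

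Atp2a1 encodes the calcium pump of fast muscle that returns calcium to the reticulum. Its ratios were −0.65, −0.22, −0.89 and −1.12, with replicate 2 closest to 0 and replicate 4 lowest. The mean of −0.72 ± 0.39 was called lower (adjusted p = 0.0176, limma). The adjusted p (limma) missed the threshold without replicate 1 (0.0602), replicate 3 (0.0882) or replicate 4 (0.0705), with means of −0.74, −0.66 and −0.59. Without replicate 2 the mean was −0.89 and the call was kept, with an adjusted p of 0.000717 (limma). Under median centring the mean was 0.15 and did not pass.

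Trdn encodes triadin and was measured by 1 probe above background. Normalised intensities were 881, 1415, 796.7 and 1114 with IFN-γ, against 1559, 844.2, 1427 and 1747 in controls. Replicate 2 ran opposite to the other arrays, and its values exchange places between the groups. The ratios of −0.82, 0.75, −0.84 and −0.65 averaged −0.39 ± 0.76 and did not pass (adjusted p = 0.338, limma). Without replicate 2 the mean was −0.77 and was called lower, with an adjusted p of 0.000416 (limma). The second Trdn probe was not well above background in either channel on any array and was not tested. Its unnormalised medians were 54.5, 46, 51 and 60 with IFN-γ, against 45, 44, 50 and 47 in controls.

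The junctophilins, which tie the T-tubule to the reticulum, gave small ratios. Jph2 had −0.35, −0.64, −0.39 and −0.37, with 3 arrays close together and replicate 2 lowest. Its mean of −0.44 ± 0.13 was called lower (adjusted p = 0.00963, limma), with −0.70 by Feature Extraction's ratios, 0.07 under median centring and, without replicate 3, an adjusted p of 0.0536 (limma). Jph1, which is dim, had −0.05, −0.08, −0.20 and 0.07, a mean of −0.07 ± 0.11 that did not pass (adjusted p = 0.511, limma).

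Jph1 was well above background in Cy3 on 3 arrays only, with unnormalised control medians of 65.5 to 68. Jph1 minus Jph2 was 0.30, 0.56, 0.19 and 0.44, a mean of 0.37 ± 0.16 (exact sign-flip p = 0.125, adjusted p = 0.188), and turned to −0.41 under median centring.

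Dhrs7c, a short-chain dehydrogenase of the reticulum membrane in muscle, fell most. Its normalised intensities were 1961, 1324, 1462 and 1754 with IFN-γ, against 5854, 4585, 5948 and 3772 in controls. The groups were far apart on every array, and replicate 4 showed the smallest gap. The ratio of −1.62 ± 0.39 is a 3.08-fold fall (adjusted p = 0.00200, limma), and 0.21% of tested probes had a ratio as low or lower. Under median centring 3 member probes were called lower by limma, those of Dhrs7c at −0.63, Casq1 at −0.35 and Jph1 at −0.34. In that setting 22% of all tested probes were called lower. The Dhrs7c probe was called lower in every alternative run, with a largest adjusted p of 0.0241, given by the methods' t-test.

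**Figure D3:**
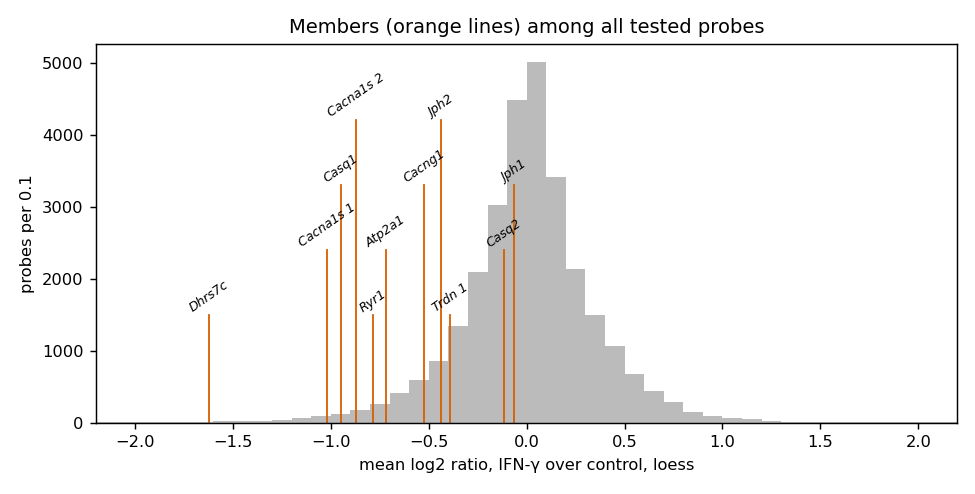
Number of tested probes (y axis) by mean log2 ratio of IFN-γ over control under loess (x axis, bins of 0.1, drawn from −2.2 to 2.2), with member probes as labelled orange lines whose heights carry no value. Dhrs7c stands at −1.62 in the far left tail, Casq2 and Jph1 near the centre, and all 11 members left of the median of 0.014; under median centring 9 of 11 lie left of the median of all probes.

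**Figure D4:**
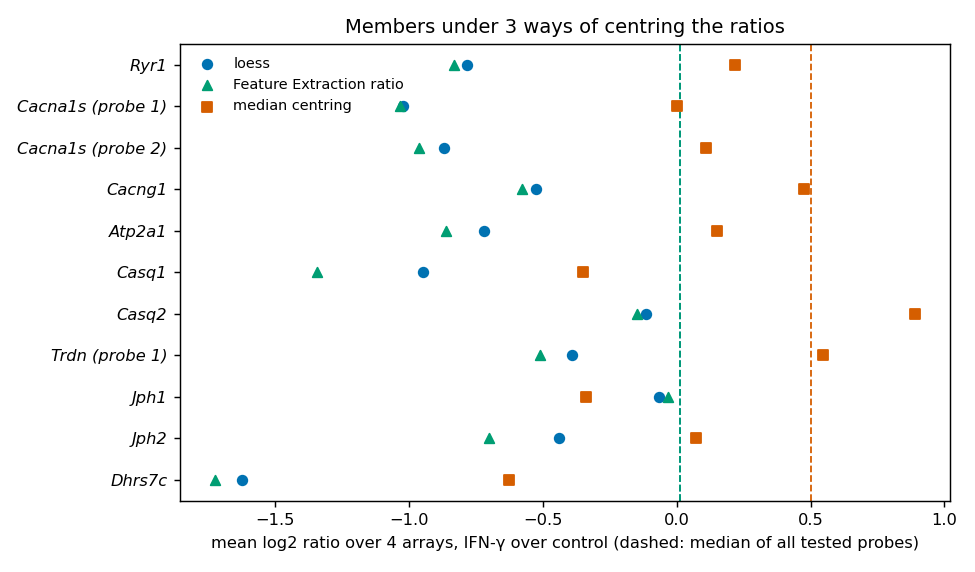
Mean log2 ratio of IFN-γ over control (x axis, 4 arrays) of each member probe under loess (circles), Feature Extraction's ratios (triangles) and median centring (squares), with dashed lines at the median of all tested probes, where the loess and Feature Extraction lines coincide. Circles and triangles lie below 0 for every probe, whereas 7 of 11 squares lie above 0, and 9 of 11 squares lie left of their own line at 0.50.

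The other genes of the pathway were mixed. Of 66 further genes in 5 lists 56 were tested on their brightest probe, and 19 were called lower, 6 higher and 31 did not pass, while 12.9% of all 15673 named genes were called lower and 18.8% higher. Under median centring the same lists held 7 genes called lower and 36 called higher.

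Partners of the junctional complex were lower in 6 of 13 tested genes and higher in 1, with a median of −0.25 against 0.026 over all genes. Hrc, a calcium-binding protein inside the reticulum, had −1.53, −0.70, −1.40 and −1.02 and fell by 1.16 on average (adjusted p = 0.00451, limma). Stac3, an adaptor that the voltage sensor needs to couple to the receptor, had −0.99, −1.38, −0.99 and −0.75, with a mean of −1.03 ± 0.26 (adjusted p = 0.00291, limma). Under median centring Hrc had −0.14 and Stac3 −0.02. Asph, whose transcripts encode junctin or a hydroxylase, rose by 0.80 on its brightest probe, but its other tested probes were called lower with −0.33 and −0.58. Fkbp1a, which encodes the small protein bound to the receptor, had −0.11, −3.67, −1.01 and −1.89 and did not pass (adjusted p = 0.0680, limma), and its other probe had −0.11. Ryr2, Cacna1c and Jph4, the forms of the heart and brain, were not tested because they were not well above background.

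Genes of T-tubule and triad formation were lower in 6 of 11 tested genes and higher in 1, with a median of −0.34. Tcap, which encodes telethonin, had −0.91 ± 0.66 and Cav3, which encodes the caveolin of muscle, −0.70 ± 0.46, both called lower under loess, but 0.06 and 0.29 under median centring, where the list median was 0.66. Mtmr2, a phosphoinositide phosphatase, rose by 1.17 ± 0.54, with 0.72 on its other probe. Bin1, which shapes T-tubules, had −0.22 ± 0.25 and did not pass.

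The list of calcium uptake, storage and reticulum membrane genes had 2 called lower and 2 called higher among 13 tested, with a median of −0.03. Rtn2, a reticulon, had −0.66 ± 0.25 and Tmem38a, a potassium-selective channel of the reticulum, −0.52 ± 0.27, both called lower under loess, but 0.34 and 0.49 under median centring. The genes that rose encode general chaperones of the endoplasmic reticulum, Calr with 0.83 ± 0.53 and Hspa5 with 0.81 ± 0.22. Canx had 0.23 ± 0.16 over 3 arrays and did not pass.

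Store-operated entry and inositol trisphosphate receptor genes had 1 called lower and 2 called higher among 10 tested, with a median of −0.03. Stim1, the calcium sensor of the reticulum that opens entry channels, had −0.91, −1.31, −1.04 and −0.93, a mean of −1.05 ± 0.19 (adjusted p = 0.00142, limma), with −0.96 on its other probe and −0.05 under median centring. Its relative Stim2 rose by 0.32 ± 0.07 and Itpr1, a release channel gated by inositol trisphosphate, by 0.44 ± 0.11, while Itpr3 had 0.03 ± 0.18 and did not pass. Of 9 tested genes of surface excitability 4 were called lower and 0 higher, with a median of −0.32. Atp1b1, a beta subunit of the sodium pump, had −0.89, −1.40, −1.23 and −0.63, a mean of −1.04 ± 0.34 (adjusted p = 0.00493, limma) and −0.16 under median centring, while Kcna7 had −0.14 ± 0.09 and did not pass.

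**Figure D5:**
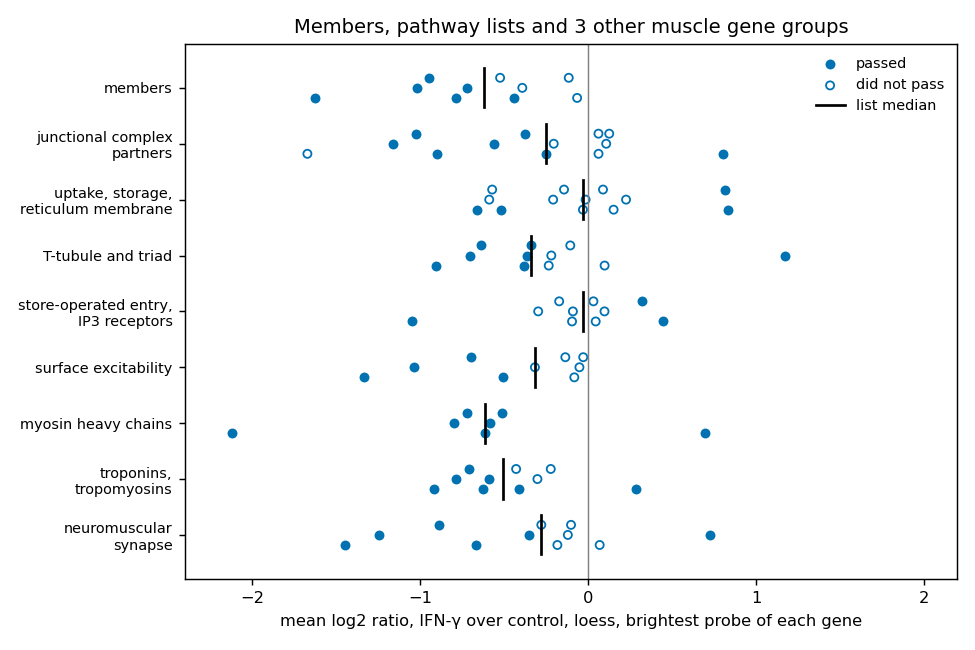
Mean log2 ratio of IFN-γ over control under loess (x axis) of each gene's brightest tested probe, by list (rows), with filled points called at an adjusted p under 0.05, open points that did not pass and a black bar at the list median. The members' median is −0.62 against −0.62 for myosin heavy chains, −0.51 for troponins and tropomyosins and −0.28 for genes of the neuromuscular synapse. Under median centring the first 3 of these medians are above 0, at 0.11, 0.43 and 0.51, and that of the synapse genes is −0.06.

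Under loess the members' median lay close to those of myosin heavy chains and of troponins and tropomyosins. Taken with 1 probe per gene, the members' median was −0.62, with −0.70, −0.78, −0.83 and −0.63 on replicates 1 to 4. Sarcomeric myosin heavy chains had a median of −0.62 with 6 of 7 genes called lower, troponins and tropomyosins −0.51 with 6 of 10, and genes of the neuromuscular synapse −0.28 with 5 of 11, against 6 of 10 for the members. Each of the compared groups also held 1 gene called higher, and the members held 0. Over all named genes 12.9% were called lower and 18.8% higher. Under median centring the medians were 0.11 for members, 0.43 for myosin heavy chains, 0.51 for troponins and tropomyosins and −0.06 for synapse genes. Differences between these groups were not tested. By distance of the 4 ratios to the members' per-array median, the nearest of 15600 other genes were Pfkm, the phosphofructokinase of muscle, at 0.098, then Bcl2l13, Pdlim4, S100a13 and Palm3, at up to 0.158, which describes 4 arrays only.

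Cell type marker lists differed in direction under loess, where 12.9% of all named genes were called lower and 18.8% higher. Of 9 tested markers of differentiated skeletal muscle 6 were called lower and 0 higher, with Myog at −0.01 ± 0.40 and Myod1 at −0.02 ± 0.08 among those that did not pass. The summed normalised intensity of this list ranged from 170200 to 280400 with IFN-γ, against 284500 to 364400 in controls. Of 7 tested fibroblast markers 5 were called higher and 0 lower, with sums of 267800 to 345400 with IFN-γ, against 136900 to 237000 in controls. Of 6 tested smooth muscle markers 4 were called lower, among them Des, which is also in the skeletal list, with sums of 121800 to 215600 with IFN-γ, against 199300 to 250100 in controls. Of 6 tested cardiac markers 0 passed in this limma fit, their sums were 1089 to 1587 with IFN-γ, against 1097 to 1461 in controls, and Myl7 and Ryr2 were not well above background. Under median centring the list medians were 0.39 for skeletal muscle and 0.13 for smooth muscle, both turned in sign, and 1.33 for fibroblast markers, against 0.50 over all tested probes. The part of these shifts in the members' ratios was not tested.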

How the data were processed

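The authors scanned the arrays and made the deposited spot intensities using the Agilent software Feature Extraction 10.7.3.1, per the submitters' processing notes and the file headers. The deposited log10 ratios are of Cy5 over Cy3 after background subtraction and dye normalisation, per the file headers. Per the labels' design text the authors log2 transformed the values in GeneSpring. On tested probes their log2 values had a slope of 3.32 per log10 unit against the scanner ratios, where 3.32 is log2 of 10. Column medians of their values ran from −0.124 to −0.105. Over tested probes the median was 0.0126, against 0.013 for the scanner ratios in log2, and Ryr1 had −0.831 in both. No further centring is seen in these means. The deposited flags were used as given.

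Here median intensities were background-corrected with normexp (offset 50) and normalised by loess within each array in limma 3.58.1 (R 4.3.3), with control and outlier-flagged spots at weight 0. Of 39429 probes 26055 had a symbol through their RefSeq accession, and 28921 passed the filter. The mean of 4 log2 ratios was tested against 0, two-sided, with Benjamini-Hochberg adjustment at 0.05. Dim probes and the number of arrays limit precision. All arrays lay on 1 slide, so no slide term could be fitted. The limma fit and its adjustment were tested on simulated log2 ratios, whereas background correction, normalisation and filtering were not. The members and lists were chosen with earlier results of these data known. Besides the members, named genes are up to 2 called falls and rises per list and its brightest gene that did not pass. A gene that this rule names is not reported here. Alternatives covered normalisation, background correction, filters, the methods' t-test, probes per gene and each replicate left out.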

Additional observations from a re-analysis of the deposited data

Results flagged for a closer look

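Replicate 2 stood apart from the other arrays for Trdn, at 0.75 against −0.84 to −0.65, and for Jph2, at −0.64 against −0.39 to −0.35. Of 33 sets of 4 values examined 2 were marked in this way, and chance marks about 1 in 20. Without replicate 2 Trdn had −0.77 and was called lower by limma, and Jph2 had −0.37 and stayed called lower.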

How the results depend on the processing

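The mean ratios of the 11 member probes kept their sign under every alternative except median centring, where 7 turned and no probe called lower was called higher. Calls were lost for Ryr1, the second Cacna1s probe, Atp2a1, Casq1 and Jph2 with the methods' t-test. They were also lost for Atp2a1 without replicate 1, 3 or 4, and for Jph2 without replicate 3. Median centring lost the calls of Ryr1, both Cacna1s probes, Atp2a1 and Jph2. It gained a lower call for Jph1 and a higher call for Casq2. Leaving out replicate 2 gained lower calls for Cacng1 and Trdn. Under median centring the counts called lower and higher were 3 and 1 for member probes, 6357 and 16438 for all probes and 7 and 36 for the pathway lists. Its mean log2 ratios were 0.22 for Ryr1, −0.0003 for the first and 0.11 for the second Cacna1s probe, 0.48 for Cacng1, 0.15 for Atp2a1, 0.89 for Casq2, 0.55 for Trdn and 0.0715 for Jph2, and Jph1 minus Jph2 was −0.41; the cause was not tested.

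The methods' t-test called 2 member probes lower, both also past 2-fold, with 40 lower and 334 higher among all probes (19 and 244 past 2-fold) and 0 in either direction in the pathway lists, with or without the 2-fold limit. By limma the pathway lists held 19 and 6. One value per gene, which tests fewer features, gave 2173 lower and 3111 higher by the brightest probe, and 2092 and 3169 by the mean of probes. Leaving out 1 replicate gave 5 to 9 member probes lower and 0 higher, 1151 to 5546 probes lower and 1913 to 6331 higher, and 8 to 24 pathway genes lower and 3 to 7 higher. No further paired analysis was possible because the labels form 1 group of ratios, so no other group shares its replicate numbers. The pairing of the channels on each array is part of the limma and sign-flip tests. The methods' t-test compared the channels as unpaired groups and leaves this pairing out.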
